A study of Mus musculus with 52 samples.

Results

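Cajal-Retzius cells are early-born neurons that lie in the outermost layer of the developing cortex and secrete reelin, the protein that guides migrating neurons into layers. They arise at the edges of the cortical sheet, among them the cortical hem and the septum, and most of them die after birth in mice, with survivors known in the hippocampus. Described here are 7 genes used as markers of these cells, taken as a named list from the 48526 gene IDs of each deposited table: Reln, Trp73, Lhx1, Lhx5, Ebf2, Ebf3 and Nhlh2. All 7 were found by ID. They were taken by name, with no threshold on a measured value, but with earlier results of these data known.

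Poly-A RNA was sequenced from mouse brain tissue of Mir146 knockouts (KO), which lack the gene of miR-146a, and of wild-type mice (WT). At embryonic day 14 (E14) whole cortex was taken from 5 KO and 4 WT. At postnatal day 30 (P30) the amygdala, frontal cortex and hippocampus were taken from 4 KO and 4 WT each. At postnatal day 60 (P60) the same regions were taken, with 4 KO and 3 WT for amygdala, 4 KO and 3 WT for frontal cortex and 2 KO and 3 WT for hippocampus. The labels used here do not say how the knockout allele was made or whether it is restricted to a tissue. The 52 libraries held 2933026 to 9469214 reads each. Mir146 itself had 1 read in 1 of the 52 libraries; poly-A libraries do not capture the mature microRNA, so it gives no check of the genotype labels. Values are normalised read counts, and a log2 fold change is on the log2(value + 1) scale, which understates the change of low genes. A gene is called at an adjusted p under 0.05 (limma, Benjamini-Hochberg over all genes tested). Per the series' design text the mice of a genotype had different mothers, and p-values measure the spread between these libraries.

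A microRNA lowers the output of messages that pair with its seed, usually in the 3′ untranslated region (3′ UTR). The mature sequence of miR-146a-5p (RefSeq, GRCm38.p6) is shown with its seed, bases 2 to 8, in capitals, followed by the stretches of the members' 3′ UTRs that match it, with the matching bases in capitals. The GENCODE M21 annotation of GRCm38 gave a 3′ UTR for all 7 members.
miR-146a-5p: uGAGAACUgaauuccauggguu
Trp73 (chr4:154058038-154058064, minus strand): aggaacatctGTTCTCActaagtgctc
Reln (chr5:21885041-21885067, minus strand): tatatgaataAGTTCTCgtcgtttgtc
Nhlh2 (chr3:102014416-102014442, plus strand): aatgtttcatGTTCTCAgctgtgaaac

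A match to AGTTCTC or GTTCTCA was present once in each of these 3 members and in none of Lhx1, Lhx5, Ebf2 and Ebf3. Of 20939 genes with a 3′ UTR, 18.0% held such a match. The members' 3′ UTRs were 898 to 2796 bases long, against a median of 939 bases over all genes. A match is a description of these letters and not a site shown to be bound. The 3 members with a match had KO minus WT differences in the E14 cortex of -0.17 (Trp73), -0.04 (Reln) and -0.56 (Nhlh2) on the log2 scale, and none of them was called there.

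In the E14 cortex none of the 7 members was called between KO and WT, although every one of them had a fitted difference below 0. Over all genes 9 of 18350 were called (0.049%), and 531 had an unadjusted p under 0.05. Voom, a count-based form of the same tool, called 5 genes and none of the members. The median of the members' differences was -0.56, against 0.01 over all genes tested, and since the members were chosen with earlier results known this is a description. Their groups of libraries separated for 2 members, Lhx1 and Ebf3, both with every KO library below every WT library, which held for 0.512% of all genes tested. In bulk tissue fewer Cajal-Retzius cells, less RNA per cell and a different share of surrounding tissue in the sample cannot be told apart.

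Lhx1, a LIM homeobox transcription factor (ENSMUSG00000018698, chr11:84518284-84525535, minus strand, GRCm38), differed most. It had 22.2, 14.3, 28.6, 12.3 and 5.39 normalised counts in KO replicates 1 to 5, against 42.3, 44.1, 42.1 and 36.2 in WT replicates 1 to 4. The highest KO library lay below the lowest WT library. The mean was 16.6 ± 9.01 in KO and 41.2 ± 3.43 in WT (SD, n = 5 and 4), a log2 fold change of -1.44 (SE 0.36, limma adjusted p = 1.00). Lhx1os, the long non-coding gene beside Lhx1, showed the same separation: 1.5 ± 0.861 in KO and 4.19 ± 0.548 in WT, with a log2 fold change of -1.13 (SE 0.26, limma adjusted p = 1.00). The neighbours are not independent measurements, and whether counting used the strand is not given in the sources used here.

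Ebf3, a transcription factor of the early B-cell factor family (ENSMUSG00000010476), had 50.9, 40.7, 46.5, 33.9 and 15.7 normalised counts in KO replicates 1 to 5, against 92.1, 89.1, 67.4 and 55.6 in WT. All KO libraries lay below all WT libraries, with the smallest gap between KO replicate 1 and WT replicate 4. The log2 fold change was -1.07 (SE 0.30, limma adjusted p = 1.00). In the annotation 2 antisense genes overlap Ebf3, so its reads may be shared with them.

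Of the other members, Lhx5, the second LIM homeobox gene, had 21.5, 11.7, 15.9, 6.53 and 4.81 in KO, against 10.9, 18.5, 28.3 and 18.2 in WT (log2 fold change -0.71, SE 0.39). Its groups overlapped, with KO replicate 1 above 3 of the 4 WT libraries. Ebf2, the paralogue of Ebf3, had 24.6, 20.1, 22.2, 7.88 and 7.68 in KO, against 17.6, 22.4, 24.4 and 22.7 in WT (log2 fold change -0.52, SE 0.34). Nhlh2, a basic helix-loop-helix factor of newborn neurons, had 47.9, 45.1, 50.4, 32.4 and 14.8 in KO, against 44.2, 55.3, 54.6 and 54.9 in WT (log2 fold change -0.56, SE 0.30). In each of these last 3, KO replicates 4 and 5 were the lowest libraries and the first 3 KO libraries reached into the WT range. For Nhlh2 those first 3 KO libraries lay above WT replicate 1 only, at 44.2, and below the other WT libraries.

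Trp73, which encodes the p53-family protein p73, had 19.1, 17.6, 16.03, 8.5 and 3.67 in KO, against 9.22, 13.0, 12.7 and 17.7 in WT. Reln, the gene of reelin itself, had 367.6, 390.7, 326.1, 351.5 and 238.1 in KO, against 370.1, 300.2, 333.8 and 361.6 in WT. Both had KO means close to the WT means, with Trp73 at 13.0 ± 6.61 in KO and 13.1 ± 3.5 in WT, and Reln at 334.8 ± 59.0 in KO and 341.4 ± 31.5 in WT (SD, n = 5 and 4). The log2 fold change of Reln was -0.04 with a 95% confidence interval of -0.33 to 0.24, and that of Trp73 was -0.17 with an interval of -1.05 to 0.71.

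**Figure D1:**
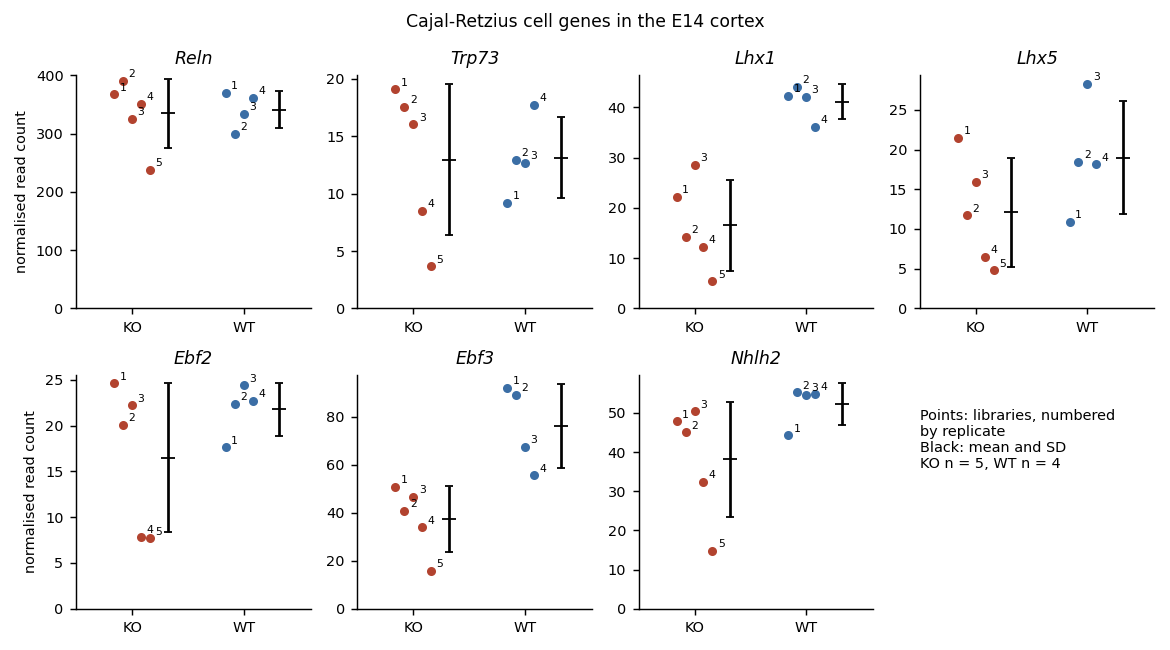
Normalised read counts of the 7 Cajal-Retzius cell genes in each E14 cortex library, KO left and WT right; points are libraries numbered by replicate, and black marks give the mean and SD (5 KO, 4 WT). KO replicate 5 is the lowest library in every panel, and the KO and WT points do not overlap for Lhx1 and Ebf3.

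The KO libraries differed among themselves. KO replicate 5 was the lowest of the 9 libraries for all 7 members, from 13.1% of the WT mean for Lhx1 to 69.7% for Reln. KO replicates 4 and 5 were the 2 lowest libraries for 6 of the 7. These libraries also stood apart over all genes: the chi-square per gene between either of them and KO replicates 1, 2 or 3 was 12.4 to 17.9, against 3.34 between the 2 and 4.22 to 6.70 among the other 3, and 2.31 to 8.33 among WT libraries. Markers of the cortical hem, looked at after the members' values were seen, did not all go the same way. Gdf7, at 1 to 9 reads a library, was 0.62 and 0.69 in KO replicates 4 and 5. It was 0.25 to 0.80 in the other KO libraries and 0.11 to 0.94 in WT. Wnt3a was 0.12 and 0.0 in KO replicates 4 and 5, 0.90 to 1.49 in the other KO libraries and 0.0 to 1.98 in WT. Wnt8b and Lmx1a were low in KO replicates 4 and 5. Wnt8b was 2.09 and 0.23 in KO replicates 4 and 5, 9.19 to 16.09 in the other KO libraries and 4.84 to 20.23 in WT, and Lmx1a was 0.86 and 0.23 in KO replicates 4 and 5, 2.24 to 4.25 in the other KO libraries and 2.58 to 7.09 in WT. The summed hem and septum list, at 442.5 and 292.63, did not set them apart in the same way, since KO replicate 1 had 356.16. The part of these differences in the members' values was not tested. KO replicates 1, 2 and 3 lay at 121.9% to 145.2% of the WT mean for Trp73 and at 86.3% to 96.6% for Nhlh2, but at 34.6% to 69.4% for Lhx1. Without KO replicate 5 the differences of Reln and Trp73 turned to 0.07 and 0.18, and the median of the 7 was -0.31; over the 9 fits that each left out 1 library it ran from -0.70 to -0.31. The sign stayed below 0 for Lhx1, Lhx5, Ebf2, Ebf3 and Nhlh2 in all 9.

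**Figure D2:**
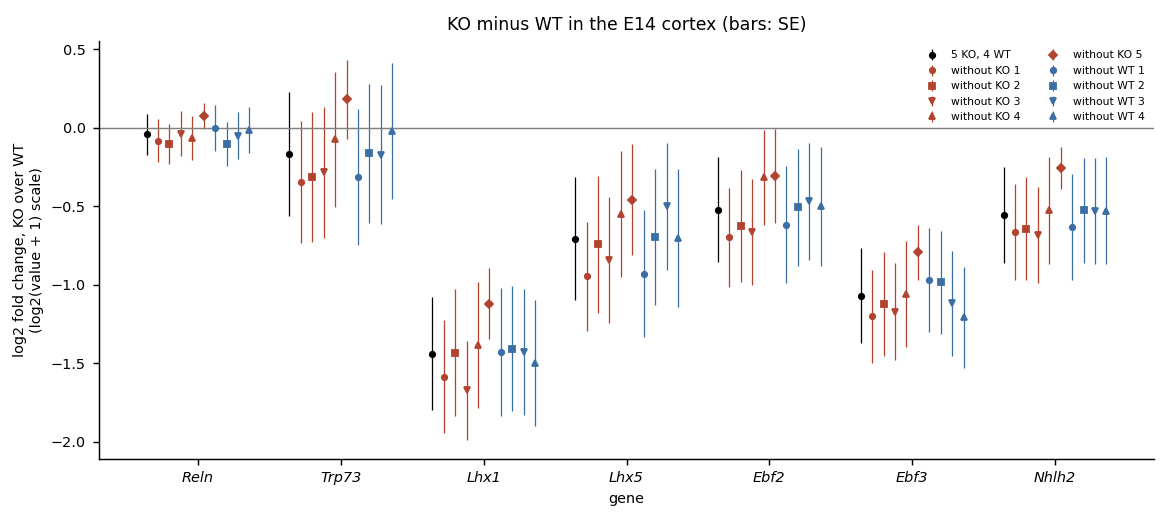
Log2 fold change of each gene in the E14 cortex, KO over WT on the log2(value + 1) scale, with all libraries (black) and with each library left out in turn (KO red, WT blue); bars are SE. Lhx1 and Ebf3 stay below 0 in every fit, and Reln and Trp73 lie above 0 without KO replicate 5.

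Per length of the longest coding transcript, the order of the WT means was Reln (29.2 ± 2.70 normalised counts per kb), Ebf3 (15.2 ± 3.51), Nhlh2 (13.2 ± 1.35), Lhx1 (10.7 ± 0.891), Lhx5 (7.05 ± 2.64), Ebf2 (4.19 ± 0.558) and Trp73 (2.61 ± 0.693; SD, n = 4). The SD intervals of Ebf3 and Nhlh2 overlapped, as did those of Lhx5 and Ebf2, and those of the other neighbours did not. In KO the mean per kb of Lhx1 was 4.30 ± 2.34, which put it below Lhx5 at 4.5 ± 2.54 (SD, n = 5).

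The other genes of the pathway and of neighbouring tissue were read from lists chosen with earlier results of these data known. Of 10 other Cajal-Retzius markers, 4 were below 0 and none was called, with a median of 0.02. The lowest of them was Lhx1os, described above. Calb2, which encodes calretinin, was at 7.99 ± 3.03 in KO and 9.92 ± 3.51 in WT (log2 fold change -0.32, SE 0.31), and Ndnf was at 14.4 ± 4.24 in KO and 19.2 ± 4.77 in WT (log2 fold change -0.41, SE 0.22). Of 24 genes of reelin signalling, 13 were below 0 and none was called, with a median of -0.00. Dab1, the adaptor that carries the reelin signal inside the cell, was at 232.6 ± 37.5 in KO and 201.8 ± 18.1 in WT (log2 fold change 0.19, SE 0.11). Adamts3, which encodes a protease that cleaves reelin, was at 68.1 ± 28.5 in KO and 47.2 ± 14.2 in WT (log2 fold change 0.46, SE 0.29). Of 14 tested LIM and EBF cofactors and paralogues, 7 were below 0 and none was called.

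Lists for tissue around the cortex differed among themselves. All 16 tested genes of the diencephalon and midbrain list were below 0 (median -1.13), and 4 were called lower, among them Foxa1, Foxb1 and Lmx1b; these had been put on the list with their earlier E14 results known, so the count is no independent evidence of direction. Lmx1b had 0.438 ± 0.452 in KO and 6.36 ± 2.87 in WT (SD, n = 5 and 4). The summed level of that list was 209.9 to 531.2 in KO and 533.1 to 746.2 in WT, with a narrow gap. Since the list was chosen in that way, the sum is a description too. It included Tcf7l2, at 45.4 to 236.1 in KO and 240.9 to 385.4 in WT. The hem and septum list, tissue that gives rise to Cajal-Retzius cells, was below 0 for 13 of 15 tested genes (median -0.46, none called), and its sum was 292.6 to 611.8 in KO and 486.5 to 615.7 in WT. Dbx1, a marker of one of those sources, was at 3.19 ± 2.58 in KO and 8.82 ± 2.42 in WT (log2 fold change -1.41, SE 0.39, limma adjusted p = 1.00).

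Among lists for cells of the cortex and its coverings none had a called gene. Of 9 cortical plate neuron genes 8 were above 0 (median 0.38, none called), and their sum was 2221.97 to 3641.74 in KO and 1855.85 to 2560.94 in WT, highest in KO replicates 4 and 5. Of 9 progenitor genes 7 were below 0 (median -0.06). Of the meninges genes 6 of 8 were below 0 (median -0.28), of choroid plexus and ependyma 4 of 7 (median -0.05), of interneurons 6 of 10 (median -0.03), of microglia 1 of 7 (median 0.18) and of blood cells 1 of 5 (median 0.05). Lhx1, Lhx5, Ebf2, Ebf3 and Nhlh2 are also known from regions outside the cortex, and the part of the surrounding tissue in their values was not tested.

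**Figure D3:**
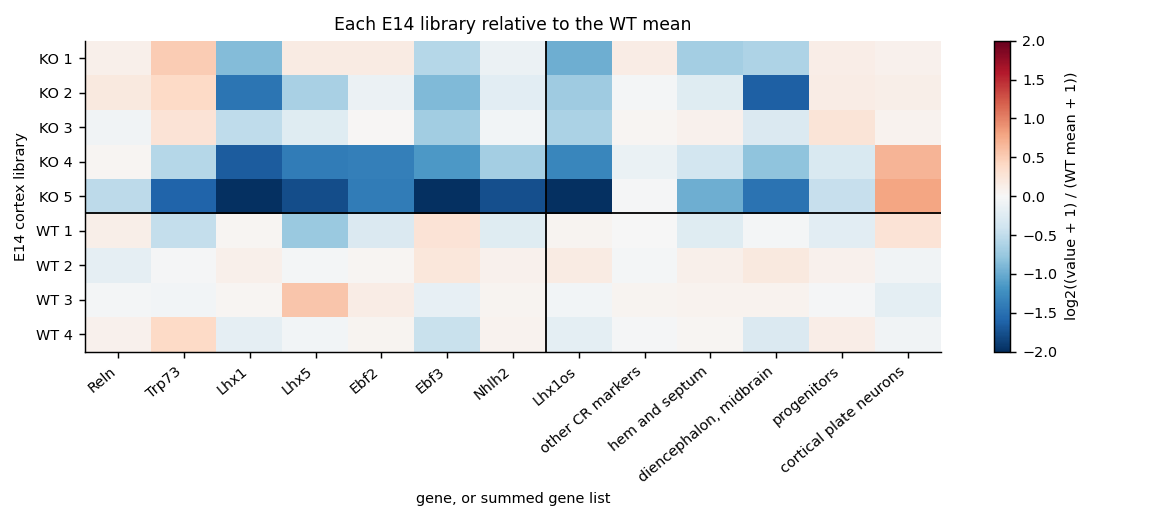
Log2 ratio of each E14 library to the WT mean, with 1 added to both, for the members (left of the vertical line), for Lhx1os and for summed gene lists; KO libraries are above the horizontal line, and red is higher and blue is lower. KO replicates 4 and 5 are bluest for 6 of the 7 members (all but Reln) and reddest for cortical plate neurons.

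By the measure of likeness used, Pearson's r over the 9 E14 libraries with the mean z score of the members, the closest of 13107 other genes were Sfmbt1 (r = 0.976), Gdpd2 (0.973), Zeb1 (0.967), Hsdl2 (0.966) and Anapc16 (0.962). Without KO replicate 5 the values were 0.929, 0.876, 0.907, 0.947 and 0.838 in the same order of genes. By rank over the 9 libraries the likeness was lower, with Spearman's rho of 0.787, 0.867, 0.75, 0.8 and 0.583. These are descriptions over libraries that share a table.

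After birth Lhx1 and Lhx5 were at or near the limit of detection. Lhx1 had 0 to 13 reads per library at P30 and 0 to 7 at P60, and Lhx5 had 0 to 6 and 0 to 12, and neither passed the filter on low values. A library at 0 reads may hold up to 3 reads' worth. Reln stayed high in all regions, Ebf3 was read in every postnatal library, and Trp73 in every library at 2 to 43 reads. The tables of the 3 ages were normalised separately, so levels are set side by side across ages without a test.

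Across the 6 postnatal comparisons of KO with WT none of the 5 tested members was called. Over all genes 0.0263%, 0.0158% and 0.0316% were called in the P30 amygdala, frontal cortex and hippocampus, and 0.0208%, 0.0312% and 0.0208% in the P60 amygdala, frontal cortex and hippocampus. In the 6 tests of whether KO minus WT differed between regions limma called 0% of genes, and so no member, with 376 to 1165 genes at an unadjusted p under 0.05, and voom called none. Without WT hippocampus replicate 1, up to 13 genes were called in such a test at P30, and no member. Of 30 pairs of a tested member and a setting, 3 had KO and WT libraries that did not overlap. Reln in the P60 amygdala had 254.9, 330.1, 277.5 and 259.7 in KO, against 213.3, 229.9 and 211.6 in WT (log2 fold change 0.35, SE 0.21, limma adjusted p = 1.00); all KO above all WT held for 2.4% of genes there. Trp73 in the P60 frontal cortex had 1.45, 1.38, 1.52 and 1.34 in KO, against 0.96, 1.0 and 0.45 in WT (log2 fold change 0.44, SE 0.36), and 2.68% of genes separated upward there. Ebf3 in the P60 hippocampus had 1.40 and 1.54 in KO, against 1.61, 3.20 and 5.85 in WT (log2 fold change -0.77, SE 0.31), and 5.56% separated downward. The Trp73 values rest on 3 to 11 reads a library and the Ebf3 values on 9 to 34. In the P60 amygdala, where replicate numbers were taken to pair the libraries, a replicate block called 7 genes in place of 4 and no member.

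Nhlh2 in the P30 hippocampus had 5.18, 3.71, 3.09 and 4.78 in KO, against 4.11, 1.63, 2.35 and 2.67 in WT. The groups overlapped, and the log2 fold change was 0.51 (SE 0.23, limma adjusted p = 0.495). All 4 listed markers of dentate gyrus granule cells also lay above 0 there (median 0.49, none called), and their sum was 478.4 to 903.55 in KO and 376.4 to 692.0 in WT. Their part in the Nhlh2 values was not tested. The other members' differences in the postnatal settings had intervals that included 0, other than that of Ebf3 in the P60 hippocampus.

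Between regions several members were called. In the P30 hippocampus Trp73, Nhlh2 and Ebf3 were higher than in the frontal cortex and Reln was lower, where 19.6% of all genes were called higher and 23.7% lower. Trp73 had 4.27 to 8.55 (median 5.25) in the 8 hippocampal libraries, against 0.24 to 1.28 (median 0.615) in the 8 frontal cortex libraries (log2 fold change 2.00, SE 0.17, limma adjusted p = 2.66e-10). The regions did not overlap. Nhlh2 had 1.63 to 5.18 (median 3.40) in the hippocampus, against 0 to 0.64 (median 0) in the frontal cortex, where 5 of 8 libraries were at 0 (log2 fold change 1.95, SE 0.16). At P30 Nhlh2 passed the filter on low values only through its hippocampal libraries. Its P30 calls between the hippocampus and the other regions are therefore descriptions. Ebf3 was higher by 1.15 (SE 0.32, limma adjusted p = 0.00598), with 2.22 to 29.9 in the hippocampus against 0.90 to 2.04 in the frontal cortex. Without WT hippocampus replicate 3, the library at 29.9, the Ebf3 value was 0.76 (SE 0.13, limma adjusted p = 4.04e-05). Reln fell by 0.40 on the log2 scale (SE 0.10), with 84.9 to 112.0 in the hippocampus, against 108.6 to 169.0 in the frontal cortex, and the ranges overlapped slightly. Ebf2 was not called, except without WT hippocampus replicate 3, when it was lower (log2 fold change -0.55, limma adjusted p = 0.0261). With no filter on low values Lhx1 and Lhx5 were called higher too, Lhx1 by 0.94 (limma adjusted p = 6.58e-05) and Lhx5 by 0.34 (limma adjusted p = 0.0340). Their highest values were both in WT hippocampus replicate 3.

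At P60 Trp73, Nhlh2 and Ebf3 were called higher in the hippocampus and Ebf2 lower, where 15.8% of all genes were higher and 17% lower. Trp73 and Nhlh2 passed the P60 filter on low values only through their hippocampal libraries. Their P60 calls between the hippocampus and the other regions are therefore descriptions. Trp73 rose by 1.21 (SE 0.28), Nhlh2 by 1.49 (SE 0.25) and Ebf3 by 0.80 (SE 0.20), and Ebf2 fell by 0.67 (SE 0.25, limma adjusted p = 0.0453). The Ebf2 call ended with no filter, with a replicate block and in 9 of the 12 fits that left out 1 library (limma adjusted p up to 0.117). Reln did not differ beyond its error (log2 fold change -0.06, SE 0.16). The Trp73 values in the hippocampus were 1.40 and 6.46 in KO and 1.76, 7.16 and 6.37 in WT, against 0.45 to 1.52 in the frontal cortex. Both libraries numbered 1 were low, and both also had the lowest Prox1, a marker of dentate gyrus granule cells, at 200.8 and 187.98, against 301.9 to 532.6 in the other P60 libraries. These markers were looked at after the low Trp73 values were seen. Without both libraries Trp73, Nhlh2 and Ebf3 were still called, Ebf2 was not, and Reln was called lower (log2 fold change -0.38, limma adjusted p = 0.0149).

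**Figure D4:**
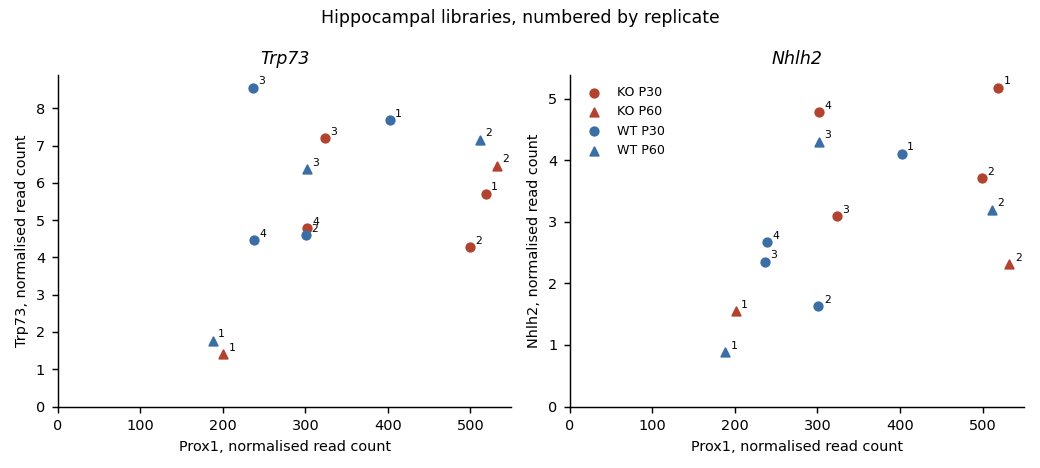
Trp73 (left) and Nhlh2 (right) against Prox1, all as normalised read counts, in the 13 hippocampal libraries, numbered by replicate; circles are P30 and triangles P60, red KO and blue WT. The P60 libraries numbered 1 have the lowest Prox1, at 200.8 in KO and 187.98 in WT, and the lowest Trp73.

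In the P30 hippocampus 1 library, WT replicate 3, stood apart for both EBF genes and for some other Cajal-Retzius markers. Its Ebf3 was 29.9, against 2.22 to 2.68 in the other WT and 2.75 to 6.17 in KO. This library held the highest Lhx1 (2.78, 13 reads) and Lhx5 (1.28, 6 reads) of that region and age. Its Cacna2d2 was 133.16, against 26.5 to 38.3 in the other P30 hippocampal libraries, and its Calb2 was 41.47, against 4.61 to 20.87. Its Cxcr4 and Ndnf, at 4.92 and 51.73, lay within the range of the others (2.38 to 5.18 and 41.9 to 54.45). It also had the most Ttr, a choroid plexus gene, at 4853.4. Its summed level of the choroid plexus and ependyma list was 9562.35, against 405.31 to 1995.97 in the other 12 hippocampal libraries, and that of the meninges list was 230.63, against 63.4 to 136.7. The part of such tissue in its values of the EBF genes and the other markers was not tested. Without it the KO minus WT differences of Ebf2 and Ebf3 turned to 0.31 and 0.40, and neither was called.

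The amygdala held more Reln than either other region. At P30 it was 218.6 to 343.8 (median 275.1) in 8 amygdala libraries, against 108.6 to 169.0 (median 148.2) in frontal cortex and 84.9 to 112.0 (median 105.7) in hippocampus. No amygdala library overlapped the others, and the log2 fold changes were 0.97 (SE 0.10) over frontal cortex and 1.37 (SE 0.10) over hippocampus. Ebf2 was higher in the amygdala by 1.14 (SE 0.33) over frontal cortex and 1.35 (SE 0.33) over hippocampus. Against frontal cortex, 4 of 5 members were called higher, where 23.4% of all genes were higher and 13.9% lower. Ebf3 lay above 0 but was not called (log2 fold change 0.49, SE 0.32). Against hippocampus Trp73 fell by 1.49 and Nhlh2 by 1.15 on the log2 scale, where 28.8% of all genes were higher and 15.3% lower. Ebf3 lay below 0 against hippocampus (log2 fold change -0.66, SE 0.32). It was called lower there only without WT hippocampus replicate 2 (log2 fold change -0.82, limma adjusted p = 0.0447). Lhx1 was called lower there (log2 fold change -0.68) with no filter.

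At P60, Reln was again higher in the amygdala, by 0.97 (SE 0.15) over frontal cortex and 1.03 (SE 0.16) over hippocampus. Against frontal cortex 4 members were called higher (20.3% of all genes higher, 11% lower), Reln, Ebf2, Ebf3 and Nhlh2, but without WT amygdala replicate 2 only 2 were, and without WT frontal cortex replicate 2 only Reln. The Ebf2 call also ended without KO amygdala replicate 3, WT amygdala replicate 3 or KO frontal cortex replicate 2 (limma adjusted p of 0.0613 to 0.0754), and with a pseudocount of 0.1 (limma adjusted p = 0.135). Against hippocampus Ebf2 was higher by 1.33 (SE 0.25), and Trp73 fell by 1.43 and Nhlh2 by 0.80 (19.6% of all genes higher, 9.39% lower). Ebf2 passed the P60 filter on low values only through its amygdala libraries, and Trp73 and Nhlh2 only through their hippocampal libraries. The P60 calls of Ebf2 over frontal cortex and hippocampus, and those of Trp73 and Nhlh2 against hippocampus, are therefore descriptions. The Nhlh2 call ended without KO hippocampus replicate 2 (limma adjusted p = 0.0999) or WT hippocampus replicate 3 (limma adjusted p = 0.0595). Scaling by TMM moved the share of amygdala calls that were higher, which was 49.7% in place of 62.8% against frontal cortex at P30, 51.4% in place of 65.4% against hippocampus at P30, and 49.6% in place of 64.8% and 53.2% in place of 67.6% at P60. The members' calls did not change with it.

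**Figure D5:**
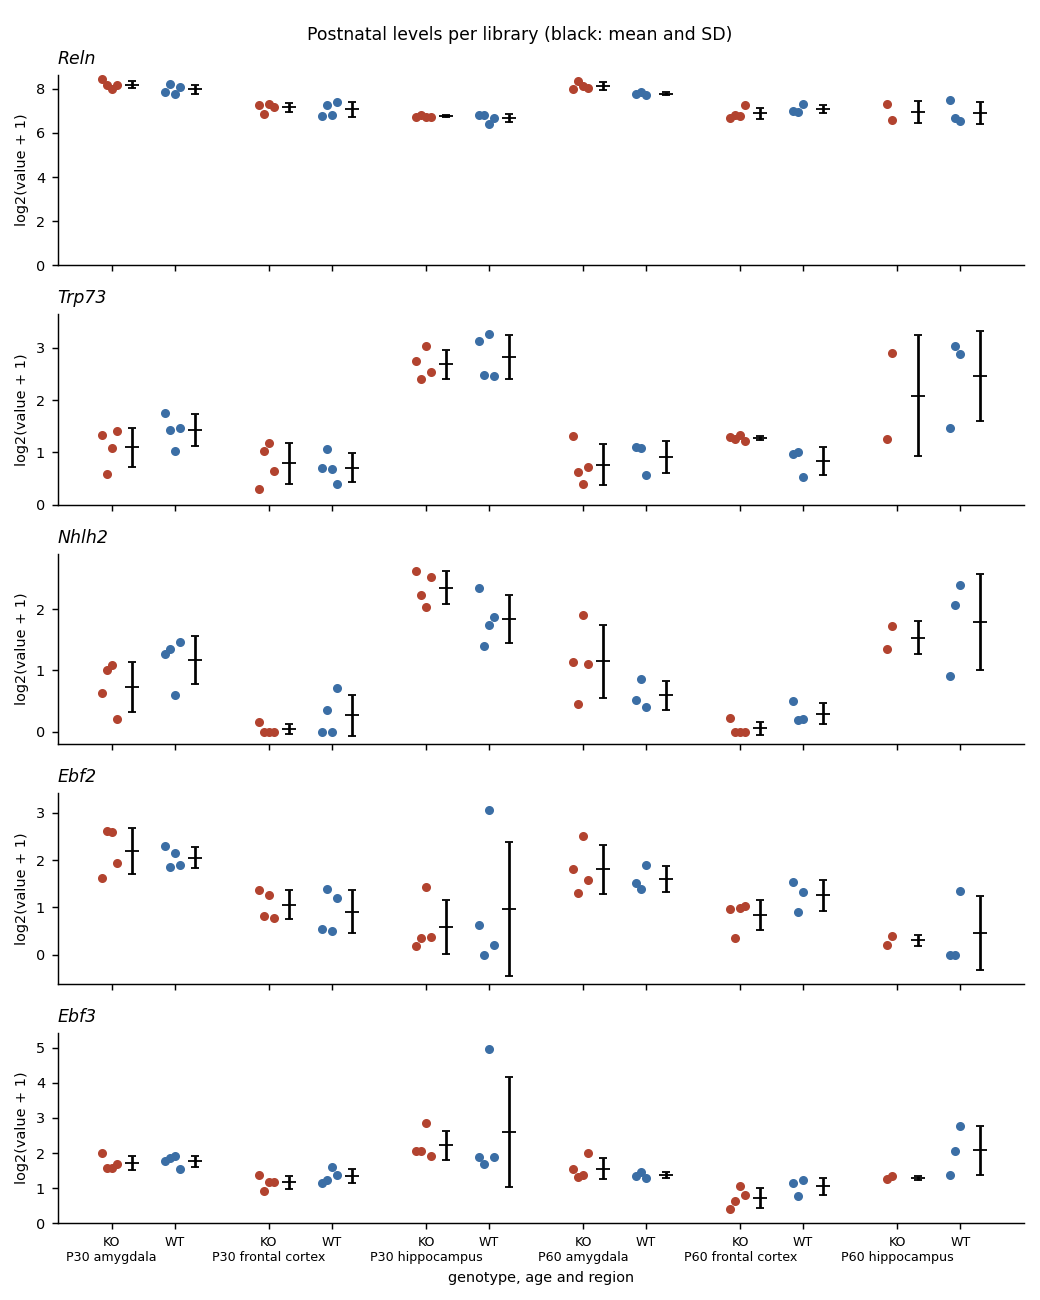
Levels of the 5 tested genes in every postnatal library as log2(value + 1), by age and region, KO left of WT in each pair; points are libraries, and black marks give the mean and SD. Reln stands highest in the amygdala at both ages, and Trp73 and Nhlh2 stand highest in the hippocampus.

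Genes of reelin signalling were also compared by region. Dab1 was higher in the hippocampus, at 236.5 ± 35.3 against 145.8 ± 5.77 in frontal cortex at P30 (log2 fold change 0.68, SE 0.08) and at 246.2 ± 25.3 against 162.2 ± 14.3 at P60 (log2 fold change 0.60, SE 0.08). Of the 24 listed genes, 5 were called higher and 5 lower in the hippocampus than in the frontal cortex at each age, where 19.6% of all genes were higher and 23.7% lower at P30, and 15.8% higher and 17% lower at P60. The list's median log2 fold change was 0.05 at P30 and 0.02 at P60. In the amygdala 8 were higher and 5 lower than in frontal cortex at P30 (23.4% and 13.9% of all genes), with a median of 0.03, against 0.06 over all genes. At P60 7 were higher and 2 lower (20.3% and 11% of all genes), with a median of 0.13, against 0.07 over all genes. Nectin1, an adhesion protein, was higher in the amygdala than in the hippocampus by 0.93 (SE 0.12) at P30 and by 1.11 (SE 0.15) at P60. Between KO and WT none of the 24 was called in any postnatal setting.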

How the data were processed

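The authors deposited 1 table per age of normalised values per gene, written with decimal commas and treated here as a score; they behave as counts divided by a factor per library. The submitters' processing notes name limma, DESeq, edgeR and the build mm9 without a role, and the sources used here name no aligner, counter or annotation. Each value was a whole multiple of a step per library, within 0.1 read for 100.0% of values, which gave whole reads. Column totals ran from 945861 to 1039135. Of 48526 IDs, 48144 matched GENCODE M21 (GRCm38), which gave symbols and positions. The growth protocol in the labels describes human cells and was not used, and the sample labels were followed where the series' design text names other ages or regions.

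Genes were kept that reached the equivalent of 10 reads at median depth in at least the smallest group's number of libraries, with 15 or more reads in total, and were tested with limma 3.58.1 (trend, robust; R 4.3.3) on log2(value + 1), with all groups of an age in 1 fit, 19 contrasts in all and Benjamini-Hochberg adjustment within each. Tests were checked on simulated data. Tables and figures were made in Python 3.11.15 with pandas 2.3.3. The alternatives were a pseudocount of 0.1, no filter, TMM scaling, a replicate block, voom and each library left out. The planned edgeR and DESeq2 fits were not run, and voom was added in their place.

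The 7 members and all lists were chosen with earlier results of these data known. The dentate and CA1 markers, and the fit without the P60 hippocampus libraries numbered 1, were chosen after member values were seen. A fit without KO E14 replicates 4 and 5 and a search of promoter motifs were also tried, and are not reported because both were picked from values already seen. Named genes were the members, list genes that were called, up to 3 per list with the largest differences, and the 5 most similar genes; values of 1 called list gene are not reported here. Replicate numbers shared by KO and WT were taken to pair the libraries in the P60 amygdala (correlations of deviations 0.21 to 0.321, 3 pairs). The correlations of P60 amygdala and frontal cortex were 0.11 to 0.214 in KO and 0.15 to 0.182 in WT. The correlations were 0.497 and 0.624 for KO and WT in the P60 hippocampus, with 2 pairs, and 0.103 to 0.162 in WT but 0.015 and 0.09 in KO for P60 amygdala and hippocampus. With the block the members called between those 2 regions did not change, and 5438 genes were called in place of 5572. The numbers come from the sample labels, which do not say what they mark.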

Additional observations from a re-analysis of the deposited data

Results flagged for a closer look

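Of 54 pairs of a member and a group of 4 or 5 libraries, 8 held 1 library far from the others, where chance flags about 1 in 20. That rate does not apply near 0 reads, as in the Nhlh2 libraries below, where 1 read against 0 in every other library is always picked out. In the E14 cortex WT replicate 1 had the lowest Nhlh2, 44.24, with the other WT libraries at 54.59 to 55.26. In the P30 hippocampus replicate 3 was highest for both EBF genes in both genotypes: Ebf2 was 1.71 in KO and 7.27 in WT, and Ebf3 was 6.17 in KO and 29.92 in WT. KO replicate 3 of that region was also the shallowest library, with 2933026 reads. In the frontal cortex Nhlh2 was 0.12 in KO replicate 1 at P30 and 0.16 in KO replicate 1 at P60, 1 read each, with the other KO libraries at 0. Ebf2 was 0.28 in KO replicate 2 of the P60 frontal cortex, the lowest of its group. No member had KO and WT separated in opposite directions in 2 regions.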

How the results depend on the processing

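No member's KO minus WT difference was called under any alternative run. Leaving out 1 library changed the sign of uncalled differences in these ranges: at E14, Reln -0.104 to 0.074 and Trp73 -0.345 to 0.181; at P30, Ebf2 -0.004 to 0.329 in the amygdala, Reln -0.003 to 0.208 and Trp73 -0.054 to 0.239 in the frontal cortex, and Reln -0.006 to 0.122, Ebf2 -0.706 to 0.31 and Ebf3 -0.684 to 0.404 in the hippocampus. At P60 the ranges were Ebf2 -0.034 to 0.364 in the amygdala, and Reln -0.302 to 0.403, Trp73 -1.195 to 0.441, Ebf2 -0.373 to 0.302 and Nhlh2 -0.7 to 0.048 in the hippocampus. Reln between hippocampus and frontal cortex at P60 ran from -0.234 to 0.118. With a replicate block signs also changed for Reln (0.074) and Trp73 (0.181) at E14, where the unpaired KO replicate 5 drops out, and in the P60 hippocampus for Reln (-0.128), Ebf2 (0.302) and Nhlh2 (0.048). There Ebf2 was 0.359 with a pseudocount of 0.1 and 0.442 with voom, and Reln was -0.014 without both libraries numbered 1. The count of members called between amygdala and frontal cortex at P60 ran from 1 to 4 with 1 library left out. The cause of these changes was not tested.

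Counts over all genes moved by more than 1.5 times in several settings. At E14 the 9 calls became 5 with a pseudocount of 0.1, 5 with voom, 3 with a replicate block, and 5 without KO replicate 4 or WT replicate 3. In the P30 hippocampus the 6 calls became 12 with a replicate block and 5 to 265 with 1 library left out, highest without WT replicate 1. With no filter the P30 amygdala had 11 calls in place of 5 and the P30 frontal cortex 5 in place of 3. In the P60 amygdala the block gave 7 in place of 4, in the P60 frontal cortex leaving out WT replicate 1 gave 3 in place of 6, and in the P60 hippocampus leaving out both libraries numbered 1 gave 2 in place of 4. Between amygdala and hippocampus at P60, 3586 genes were called in place of 5572 without KO hippocampus replicate 2. At E14 the correlations of same-numbered KO and WT libraries ran from -0.399 to 0.256, so the numbers were not taken to pair them. Low counts limit Trp73, Nhlh2, Ebf2 and Ebf3 after birth. The planned edgeR and DESeq2 fits were not run.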
